A study of Mus musculus with 8 samples.

Results

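Lysosomes are acidic compartments in which proteases, glycosidases and lipases break down material that reaches the cell from outside or by autophagy. The interior is acidified by the V-ATPase, a rotary proton pump made of a cytosolic V1 sector that hydrolyses ATP and a V0 sector in the membrane that passes protons. Many genes of this system carry a short E-box motif near their start sites and can be switched on together by the MiT/TFE transcription factors TFEB, TFE3 and MITF, and macrophages make many of the hydrolases in large amounts. The 56 genes described here are 13 cathepsins and related proteases, 20 other hydrolases and their activators, 6 membrane proteins, 3 MiT/TFE factors and 14 subunits of the V-ATPase. Npc2, a soluble protein of the lumen, is grouped with the membrane proteins. The 56 genes were chosen by symbol, and each was found by its Entrez identifier among the 36528 genes in the files. All 56 had enough counts to be tested.

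Mesothelial cells form the lining of the body cavities; the RNA was polyadenylated RNA of primary mouse cells of this kind from the omentum. There were 4 libraries from BAP1 KO cells and 4 from WT cells. BAP1 is a nuclear deubiquitinase that acts on histone H2A and is lost in many mesotheliomas. The sources used here do not give the allele, the deleted exons, any Cre driver, the strain, the age or the culture conditions. They also do not say whether each library had its own animal or culture, so the p-values rest on spread among libraries that may be technical.

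The libraries held 69.5 to 82.1 M counts in BAP1 KO and 67.1 to 84.9 M in WT. Bap1 itself had 54.0, 53.1, 52.0 and 53.7 CPM in the BAP1 KO libraries, against 63.1, 62.6, 62.9 and 64.2 CPM in the WT libraries, a log2 fold change of -0.25 ± 0.03 (SE, adjusted p = 2.1e-09). No BAP1 KO library reached the WT range of Bap1, and its mean was 84.2% of the WT level. Counts per gene do not show whether reads came from a deleted exon. Of 14 mesothelial markers, 4 were higher, 7 were lower, 2 did not pass and 1 was not tested, with a sum of 1396 to 1407 CPM in BAP1 KO and 1413 to 1443 CPM in WT. The 3 most abundant were Upk3b, Upk1b and Lrrn4. Upk3b was at 464 CPM in BAP1 KO and 462 CPM in WT. Upk1b was at 251 CPM in BAP1 KO and 229.6 CPM in WT, and Lrrn4 at 214 CPM in BAP1 KO and 236 CPM in WT. By 1.5-fold or more, 1 mesothelial marker was higher and 5 were lower, where 4.49% of all genes were higher and 10.3% lower. Their log2 fold changes ran from -1.56 to 0.81 ± 0.03 (Cldn15), and Wt1 was also higher (0.45 ± 0.02). Msln was at 3.06 CPM in BAP1 KO and 6.95 CPM in WT and Krt8 at 0.793 CPM in BAP1 KO and 2.35 CPM in WT, and Calb2 had 1 read over the BAP1 KO libraries and 2 over the WT libraries, too few to compare. The sum of 19 macrophage markers was 19477 to 20094 CPM in the BAP1 KO libraries, against 16953 to 17298 CPM in the WT libraries, with 10 higher, 7 lower and 2 that did not pass. Without Lyz2, which was at 11027 CPM in BAP1 KO and 8388 CPM in WT and was set aside after its values were seen, the sum of the other 18 was 8801 to 8961 CPM in BAP1 KO and 8728 to 8917 CPM in WT, which overlapped. Of 10 fibroblast markers, 8 were lower, 1 was higher and 1 did not pass, and their sum was 18783 to 19498 CPM in BAP1 KO and 22154 to 23665 CPM in WT. Of 9 adipocyte markers tested, 6 were higher and 3 lower, with a sum of 777 to 827 CPM in BAP1 KO and 542 to 573 CPM in WT, while Lep was at 0 in every library. The 8 smooth muscle and pericyte markers, 3 higher, 3 lower and 2 not passed, summed to 12124 to 12311 CPM in BAP1 KO and 11898 to 12371 CPM in WT. Endothelial markers were low, with 1 higher, 5 lower and 1 not passed of 7 tested and a sum of 52.0 to 53.9 CPM in BAP1 KO and 60.8 to 62.9 CPM in WT, and so were lymphocyte markers, with 2 higher, 1 lower and 2 not passed of 5 and a sum of 3.30 to 3.72 CPM in BAP1 KO and 5.14 to 5.37 CPM in WT. The part these cell types play in the values below was not tested, and in bulk RNA a smaller number of cells of a type cannot be told from less RNA per cell.

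On adjusted library totals, the summed level of the 56 genes overlapped between the genotypes, while most of them differed one by one. Summed over all 56, the libraries held 40239 to 40719 CPM in BAP1 KO and 40237 to 40801 CPM in WT (CPM, counts per M of the adjusted library total). As a share of the unadjusted totals, the set was lower in BAP1 KO without overlap, at 3.997 to 4.043%, against 4.055 to 4.101% in WT. Ctsd and Ctsb held much of the sum. Ctsd was at 11475 CPM in BAP1 KO and 11559 CPM in WT. Ctsb was at 9022 CPM in BAP1 KO and 9172 CPM in WT. Within the set, 27 genes were higher, 19 were lower and 10 did not pass (edgeR quasi-likelihood test, Benjamini-Hochberg adjusted p below 0.05 over all genes). Among all 16929 genes tested, 61.1% were called, 29.0% as higher and 32.1% as lower. The median log2 fold change was 0.04 over the 56 genes and -0.0046 over all genes tested. Most changes were small: of the 46 genes called, 42 changed by less than 1.5-fold, 4 by 1.5 to 2-fold, and 0 reached 2-fold. The 4 past 1.5-fold were Ctsk, which was higher, and Ctsf, Smpd1 and Ctse, which were lower. At that size 14.8% of all genes were called, 4.49% as higher and 10.3% as lower. In 44 of the 56 genes the BAP1 KO and WT libraries did not overlap, against 53.8% of all genes tested.

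**Figure D1:**
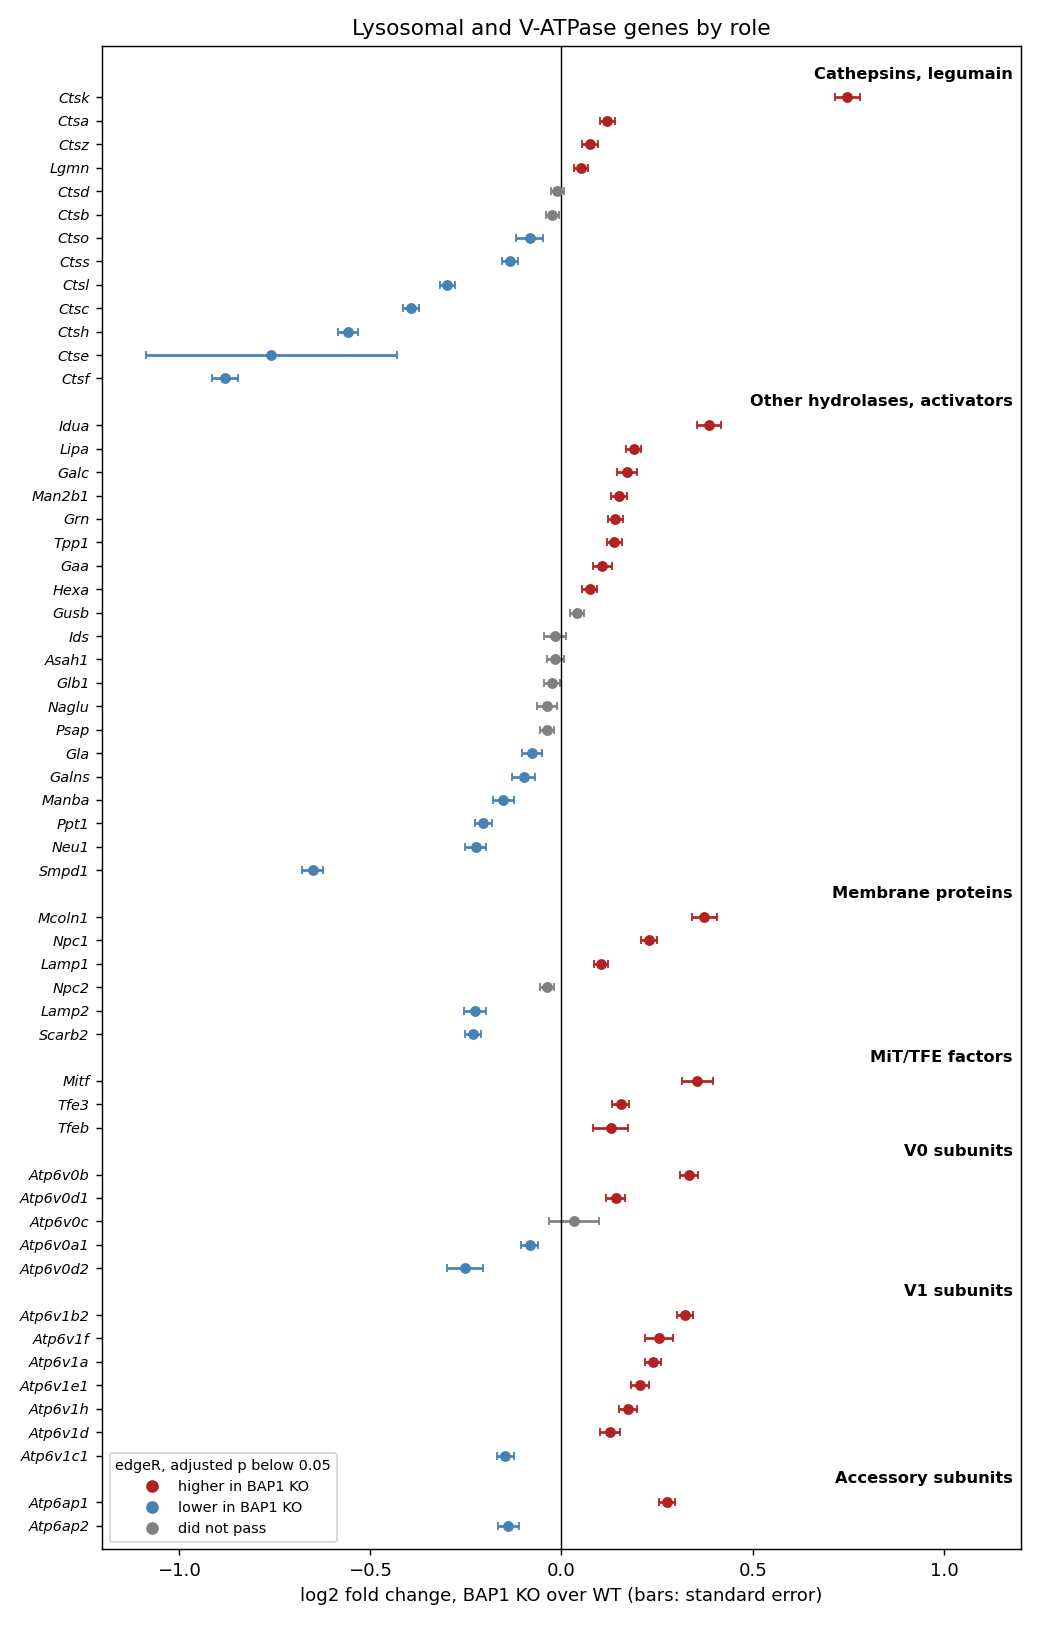
Log2 fold change of each of the 56 genes, BAP1 KO over WT, with its standard error (horizontal axis), grouped by role and ordered within each group; red points were higher, blue points lower and grey points did not pass. Cathepsins and other hydrolases fall on both sides of 0, the 3 MiT/TFE factors lie above 0, and 6 of the 7 V1 subunits lie above 0.

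Per unit of gene length, the set covered a very wide range of levels, and the 5 most abundant genes ranked the same in both genotypes. On the scale of the authors' size-factor-adjusted RPKM, the aspartyl protease gene Ctsd led, at 5846 ± 63.2 in BAP1 KO and 5841 ± 82.7 in WT (SD, n = 4 each). Ctsb followed at 1894 ± 22.1 in BAP1 KO and 1909 ± 30.5 in WT, and Psap, the precursor of the saposins that help lipid hydrolases reach their substrates, at 1097 ± 15.4 in BAP1 KO and 1117 ± 13.6 in WT. None of these 3 differences passed the test, with adjusted p = 0.62 for Ctsd, 0.25 for Ctsb and 0.07 for Psap, though Psap passed as lower in 5 of 16 other settings and Ctsd in 1, with GC and length trends taken out (-0.06). Grn, the precursor of the granulins, came next at 724 ± 9.43 in BAP1 KO and 651 ± 17.6 in WT, and Lamp1 after it at 650.2 ± 5.10 in BAP1 KO and 600.1 ± 4.99 in WT. Among the V-ATPase subunits, Atp6ap1 stood at 203 ± 1.53 in BAP1 KO and 166 ± 3.55 in WT and Atp6v0b at 196 ± 5.06 in BAP1 KO and 154 ± 4.09 in WT. Atp6v0c, the proteolipid of the proton-carrying ring, appeared far lower, at 4.83 ± 0.146 in BAP1 KO and 4.68 ± 0.291 in WT. Only uniquely aligning reads were counted and RefSeq annotates the pseudogenes Atp6v0c-ps1 and Atp6v0c-ps2, so the Atp6v0c level is uncertain. The MiT/TFE factors were low, with Tfe3 at 28.6 ± 0.130 in BAP1 KO and 25.5 ± 0.294 in WT, Tfeb at 6.48 ± 0.360 in BAP1 KO and 5.86 ± 0.418 in WT and Mitf at 5.17 ± 0.147 in BAP1 KO and 4.01 ± 0.273 in WT. Ctse, a cathepsin of stomach and immune cells, was last, at 0.0630 ± 0.0234 in BAP1 KO and 0.107 ± 0.0210 in WT.

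**Figure D2:**
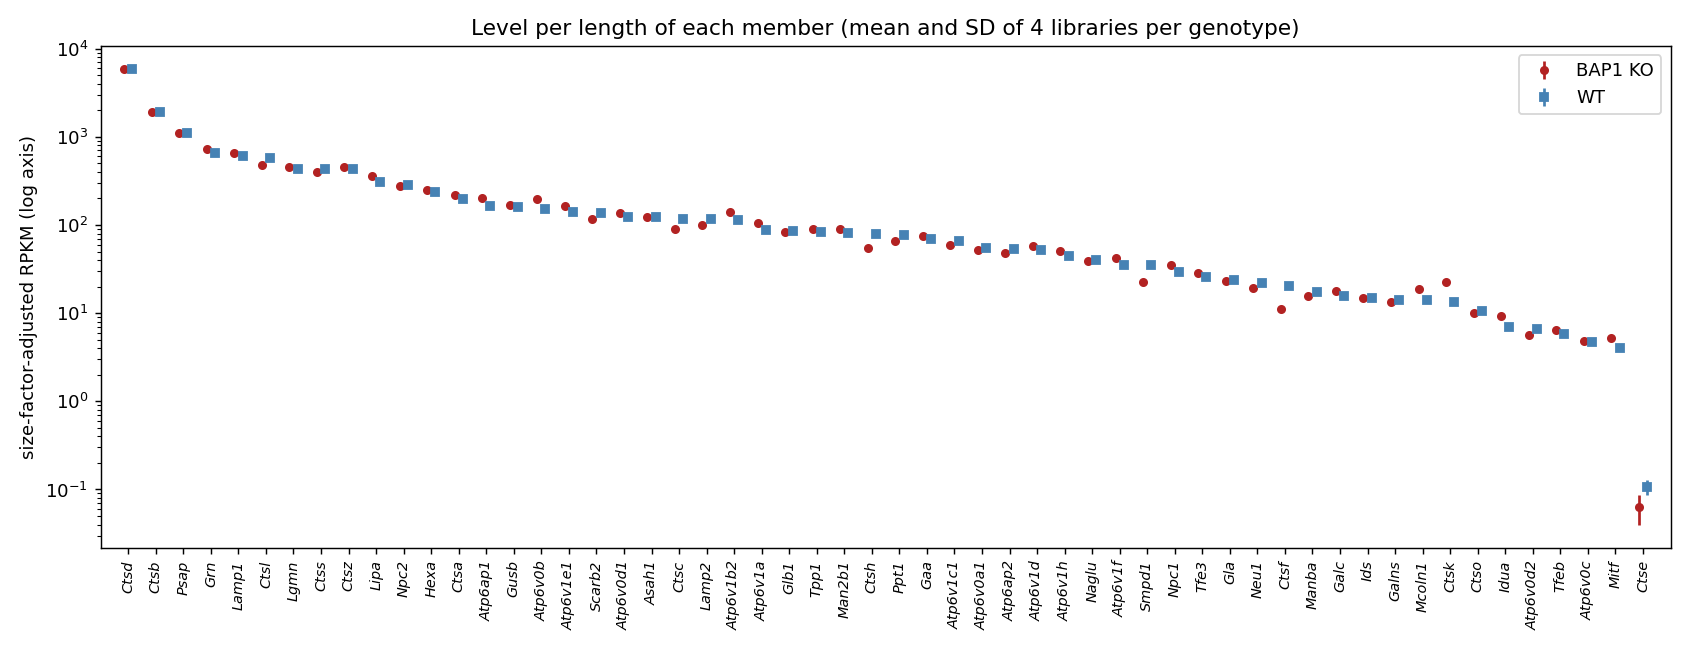
Size-factor-adjusted RPKM of the 56 genes on a log axis, ordered by the WT mean; circles are BAP1 KO means, squares WT means, and bars the SD of 4 libraries. BAP1 KO means run from 5846 for Ctsd to 0.0630 for Ctse, and the genotypes stand close together for most genes.

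The 3 regulators of the pathway were each a little higher in BAP1 KO, where 29.0% of all genes were higher. Mitf, best known from pigment cells, osteoclasts and macrophages, had 32.0, 33.0, 33.4 and 34.5 CPM in the BAP1 KO libraries, against 26.6, 27.0, 26.9 and 23.3 CPM in the WT libraries. Each BAP1 KO library was above each WT library, and 1 WT library lay below the other WT libraries. The log2 fold change of Mitf was 0.36 ± 0.04 (SE, adjusted p = 6.4e-09). For Tfe3, which is broadly expressed, the values were 118, 118, 117 and 119 CPM in BAP1 KO and 106, 106, 105 and 108 CPM in WT. The genotypes did not overlap, with a log2 fold change of 0.15 ± 0.02 (SE, adjusted p = 6.7e-07). Tfeb, a main switch of lysosomal genes, had 25.3, 23.0, 23.1 and 25.3 CPM in the BAP1 KO libraries, against 19.96, 23.3, 21.7 and 23.2 CPM in the WT libraries. Here the genotypes overlapped. The log2 fold change of 0.13 ± 0.05 passed (adjusted p = 0.015), but the call was lost without WT replicate 1 (0.09), without BAP1 KO replicate 1 or 4 (0.11 each), and with trends for GC content and gene length taken out (-0.04). These factors are controlled largely by their phosphorylation and location in the cell, which RNA counts do not measure.

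Promoters of the set were searched for the E-box core CACGTG, for its extended form TCACGTGA, and for the full CLEAR palindrome, which is TCACGTGA with a G before it and a C after it; each reads the same on both strands, and each longer form holds the shorter one. The windows run from 250 bases before to 50 after a start of the gene in RefSeq on GRCm38.p6, and 46 of the 56 genes had one. That start can lie inside the gene's outer bounds, as it does in Atp6v1a and Ctsa. The core was found in 14 of the 46 genes (30.4%), against 8.09% of 27025 genes in the table. TCACGTGA was found in 6 of 46 (13.04%), against 1.12% of all, and the full palindrome in 0 of 46, against 0.370%. Genes of the pathway lists outside the set had similar shares for the shorter forms. Of 112 with a window, 25 held the core (22.3%), 12 held TCACGTGA (10.7%) and 3 held the full palindrome (2.68%). Of the 6 genes of the set with TCACGTGA, Mcoln1, Atp6v1a, Atp6v0d1 and Ctsa were higher in BAP1 KO, Gla was lower and Ctsd did not pass. In the whole set 27 of 56 genes were higher and 19 lower, and of all genes 29.0% were higher and 32.1% lower. A match describes the letters of a window and no more. The windows below are those of the 2 genes of the 6 that rose most, of the gene that fell and of the most abundant gene, on the gene's own strand from 5′ to 3′, with TCACGTGA in capitals.
Mcoln1, chr8:3500269-3500568, plus strand: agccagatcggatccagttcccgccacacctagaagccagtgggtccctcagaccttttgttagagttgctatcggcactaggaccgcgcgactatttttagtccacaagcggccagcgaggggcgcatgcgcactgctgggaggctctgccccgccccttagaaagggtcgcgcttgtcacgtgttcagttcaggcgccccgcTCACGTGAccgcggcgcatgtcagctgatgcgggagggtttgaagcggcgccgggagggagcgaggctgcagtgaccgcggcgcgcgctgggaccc
Atp6v1a, chr16:44139210-44139509, minus strand: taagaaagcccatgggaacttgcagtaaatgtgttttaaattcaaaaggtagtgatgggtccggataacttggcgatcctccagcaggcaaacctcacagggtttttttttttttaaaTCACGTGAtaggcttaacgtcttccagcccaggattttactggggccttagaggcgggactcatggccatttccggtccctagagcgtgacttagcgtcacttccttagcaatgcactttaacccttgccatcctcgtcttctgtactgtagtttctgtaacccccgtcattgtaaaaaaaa
Gla, chrX:134600956-134601255, minus strand: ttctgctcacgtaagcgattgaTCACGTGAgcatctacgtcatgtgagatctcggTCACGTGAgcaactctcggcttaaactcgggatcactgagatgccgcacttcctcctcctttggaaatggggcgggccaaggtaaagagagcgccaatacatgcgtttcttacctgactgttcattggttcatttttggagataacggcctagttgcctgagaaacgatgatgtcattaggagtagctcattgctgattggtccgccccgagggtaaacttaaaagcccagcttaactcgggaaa
Ctsd, chr7:142387778-142388077, minus strand: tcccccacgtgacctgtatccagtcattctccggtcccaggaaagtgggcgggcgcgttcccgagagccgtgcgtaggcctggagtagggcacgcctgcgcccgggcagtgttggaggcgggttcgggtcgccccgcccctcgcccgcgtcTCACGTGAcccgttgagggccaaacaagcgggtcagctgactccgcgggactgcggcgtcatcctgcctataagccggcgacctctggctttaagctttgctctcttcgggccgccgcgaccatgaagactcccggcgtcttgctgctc
The centre of the motif lay 42 bases before the start in Mcoln1, 128 in Atp6v1a and 95 in Ctsd, and Gla held 2 copies, at 224 and 191 bases. In Atp6v1a the distance is to a start inside the gene, whose bounds are 44085402 to 44139702, so the motif lies within them. These 4 genes share the motif at different distances and differed in direction. Gla had 68.4, 71.2, 69.7 and 70.2 CPM in the BAP1 KO libraries, against 75.0, 74.2, 74.5 and 71.4 CPM in the WT libraries, a log2 fold change of -0.08 ± 0.03 (SE, adjusted p = 0.012). The groups did not overlap, but this small difference turned to 0.01 with trends for GC content and gene length taken out.

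Cathepsins split, with 1 clear rise among several falls, while the most abundant ones moved little. Of 13 genes, 4 were higher, 7 were lower and 2 did not pass, where 29.0% of all genes were higher and 32.1% lower. The median log2 fold change of the 13 was -0.08. Their summed level was 24959 to 25303 CPM in BAP1 KO and 25631 to 26039 CPM in WT, without overlap. The sum of the fibroblast markers was also lower and that of the macrophage markers higher, though not without Lyz2. The part of either in this result was not tested. Ctsk (Entrez 13038; GRCm38 chromosome 3, 95499210 to 95509387), the collagen-degrading cathepsin of osteoclasts and fibroblasts, had 48.1, 49.8, 48.6 and 48.5 CPM in the BAP1 KO libraries, against 30.5, 27.5, 28.9 and 29.3 CPM in the WT libraries. All BAP1 KO libraries were far above all WT libraries. Its log2 fold change was 0.75 ± 0.03 (SE, adjusted p = 1.2e-18), and it also passed the test against a 1.5-fold change (adjusted p = 4.6e-05), as 8.18% of all genes did. Ctsf (Entrez 56464; chromosome 19, 4855165 to 4860918), a widely expressed cysteine protease, showed the opposite, with 22.5, 21.8, 22.6 and 22.2 CPM in BAP1 KO and 41.9, 40.1, 39.2 and 42.7 CPM in WT. It fell to 54.4% of the WT level without overlap, giving -0.88 ± 0.03 (SE, adjusted p = 8.8e-20), again past the 1.5-fold test (adjusted p = 4.8e-09). Ctsh, an aminopeptidase of lysosomes, had 90.4, 89.8, 85.4 and 91.2 CPM in the BAP1 KO libraries, against 131, 127, 133 and 135 CPM in the WT libraries, a log2 fold change of -0.56 ± 0.03 (SE, adjusted p = 5.1e-18). Ctsc, which activates granule serine proteases of immune cells, had 483, 493, 482 and 486 CPM in the BAP1 KO libraries, against 648, 641, 647 and 617 CPM in the WT libraries, a log2 fold change of -0.39 ± 0.02 (SE, adjusted p = 8.7e-17). Both were lower in all 4 BAP1 KO libraries.

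Among the abundant cysteine cathepsins, Ctsl had 1115, 1122, 1103 and 1113 CPM in the BAP1 KO libraries, against 1408, 1338, 1361 and 1367 CPM in the WT libraries. It was lower in every BAP1 KO library, with a log2 fold change of -0.30 ± 0.02 (SE, adjusted p = 2e-14). GENCODE places exons of Gm49230 on the same strand and of Gm47123 on the other over those of Ctsl, by up to 1742 bases, and since the sources do not say whether counting used strand, such reads cannot be assigned with certainty here or in the overlaps given below. Ctss, which trims the invariant chain in antigen-presenting cells, was lower too (-0.14 ± 0.02; 545 CPM in BAP1 KO and 598 CPM in WT). Ctsb had 9053, 9141, 8894 and 8998 CPM in BAP1 KO and 8995, 9158, 9353 and 9181 CPM in WT. Ctsd, on 778935 counts or more per library, had 11535, 11367, 11405 and 11593 CPM in BAP1 KO and 11518, 11489, 11441 and 11789 CPM in WT. For both the genotypes overlapped. Exons of Ctsb overlap those of Fdft1 on the opposite strand over 774 bases, and exons of Ctsd those of Gm49369 on the same strand over 808 bases. Small rises were seen in 3 more genes. Ctsa, the protective protein that keeps beta-galactosidase and neuraminidase stable, had 792, 775, 789.9 and 793 CPM in the BAP1 KO libraries, against 707, 724, 722 and 746 CPM in the WT libraries (0.12 ± 0.02). Exons of Ctsa overlap those of Pltp on the opposite strand over up to 495 bases, and exons of Ctsz those of Nelfcd over 10 bases. Ctsz, a carboxypeptidase, had 649, 634, 634 and 654 CPM in the BAP1 KO libraries, against 605, 609.8, 599 and 626 CPM in the WT libraries (0.07 ± 0.02). Lgmn, the asparaginyl endopeptidase that matures other cathepsins, was at 919.6 CPM in BAP1 KO and 888 CPM in WT (0.05 ± 0.02). With GC and length trends taken out, the log2 fold change of Ctsl was -0.19 and that of Ctss -0.08, both still called. Calls for the smallest of these changes were not stable: that of Ctsz was lost with GC and length trends taken out (-0.01), and that of Lgmn with library totals alone (0.04) or without a filter on low counts (0.05). Ctso (-0.08 ± 0.04, adjusted p = 0.044) lost its call in 8 of 16 alternatives: RLE factors, DESeq2, the GC and length setting and the absence of BAP1 KO replicate 1 or 2 or of WT replicate 1, 2 or 3, with values from -0.09 to 0.0031. Ctse had 8, 8, 17 and 8 counts in BAP1 KO and 14, 24, 13 and 19 in WT. The log2 fold change of Ctse, -0.76 ± 0.33 (adjusted p = 0.046), rests on those few reads and lost its call with DESeq2, without a filter on low counts and without BAP1 KO replicate 1, 2 or 4 or WT replicate 1, 2 or 4, with values from -0.80 to -0.63.

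**Figure D3:**
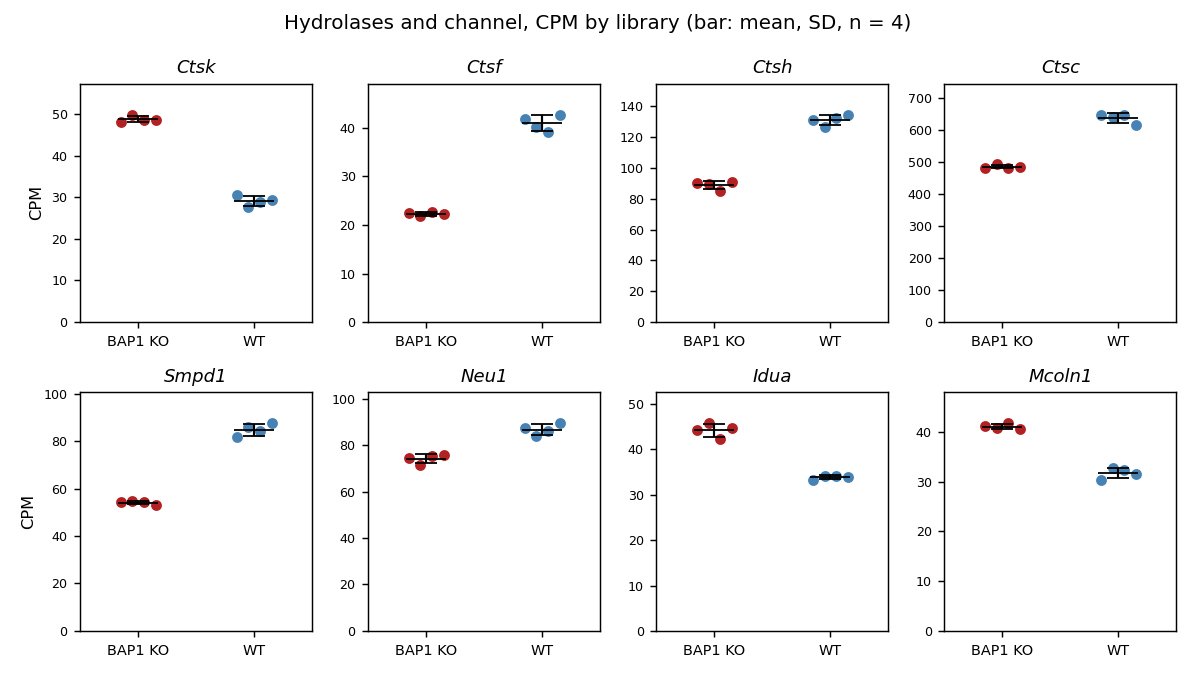
CPM in each library for 4 cathepsins, 3 other hydrolases and the channel gene Mcoln1, with BAP1 KO on the left of each panel and WT on the right; bars give the mean and SD of 4 libraries and each axis starts at 0. Ctsk, Idua and Mcoln1 are higher and Ctsf, Ctsh, Ctsc, Smpd1 and Neu1 lower in all 4 BAP1 KO libraries.

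The other hydrolases changed in both directions and mostly by small amounts. Of 20 genes, 8 were higher, 6 were lower and 6 did not pass, where 29.0% of all genes were higher and 32.1% lower. The median log2 fold change of the 20 was -0.02. The summed level went the other way from that median, at 8995 to 9123 CPM in BAP1 KO and 8662 to 8851 CPM in WT, without overlap. Abundant genes weigh most in this sum. The largest rises in mean CPM were those of Grn (158) and Lipa (130), and the largest fall that of Psap (-80.4), which did not pass. Smpd1 (Entrez 20597; chromosome 7, 105554360 to 105558389), the acid sphingomyelinase that is deficient in Niemann-Pick disease types A and B, had 54.3, 54.7, 54.4 and 53.2 CPM in the BAP1 KO libraries, against 81.6, 86.0, 84.4 and 87.5 CPM in the WT libraries. Every BAP1 KO library was well below every WT library, with a log2 fold change of -0.65 ± 0.03 (SE, adjusted p = 4.1e-19), past the 1.5-fold test as well (adjusted p = 0.036). Neu1, the sialidase that works in a complex with beta-galactosidase and Ctsa, had 74.7, 71.2, 75.4 and 75.6 CPM in BAP1 KO and 87.4, 84.1, 85.9 and 89.3 CPM in WT, giving -0.22 ± 0.03 (SE, adjusted p = 1.9e-08). Ppt1, which removes palmitate from proteins, had 173, 179, 177 and 178 CPM in BAP1 KO and 207, 202, 208 and 199 CPM in WT, giving -0.20 ± 0.02 (SE, adjusted p = 2e-09). Both fell without overlap; exons of Ppt1 overlap those of Cap1 on the opposite strand over 129 bases. Manba, the beta-mannosidase, and Galns, which acts on keratan sulfate, were also lower, with log2 fold changes of -0.15 ± 0.03 and -0.10 ± 0.03; the 6th gene to fall was Gla. With GC and length trends taken out, the values of Ppt1 and Manba were -0.10 each, and both were still called.

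Rises in this group were led by Idua, the enzyme of heparan and dermatan sulfate breakdown that is missing in Hurler syndrome. Idua had 44.2, 45.7, 42.3 and 44.7 CPM in the BAP1 KO libraries, against 33.2, 34.1, 34.2 and 33.8 CPM in the WT libraries. No BAP1 KO library overlapped a WT library, and the log2 fold change was 0.39 ± 0.03 (SE, adjusted p = 4.5e-12); its exons overlap those of Slc26a1 and Dgkq on the opposite strand, by up to 141 bases. Lipa, the acid lipase that frees cholesterol and fatty acids, had 1039, 1086, 1064 and 1057 CPM in the BAP1 KO libraries, against 928, 939.96, 946 and 910.4 CPM in the WT libraries, a log2 fold change of 0.19 ± 0.02 (SE, adjusted p = 1.2e-09). Galc, which removes galactose from galactosylceramide, had 83.7, 85.6, 87.9 and 84.9 CPM in BAP1 KO and 78.1, 76.0, 74.3 and 75.4 CPM in WT (0.17 ± 0.03). Both were higher in all 4 BAP1 KO libraries. Exons of Galc overlap those of Gm47439 on the opposite strand over 400 bases. Grn had 1705, 1689.9, 1671 and 1719 CPM in the BAP1 KO libraries, against 1480.5, 1561, 1536 and 1575 CPM in the WT libraries (0.14 ± 0.02). The alpha-mannosidase Man2b1 (0.15 ± 0.02), the peptidase Tpp1 (0.14 ± 0.02), the alpha-glucosidase Gaa (0.11 ± 0.02) and the hexosaminidase alpha chain Hexa (0.07 ± 0.02) completed the group that was higher, of which Gaa lost its call with GC and length trends taken out (0.01). In that setting Lipa was at 0.29 and Hexa at 0.03, both still called. Exons of Grn overlap those of Fam171a2 over 68 bases and exons of Hexa those of Tmem202 over 255 bases, both on the opposite strand, and exons of Glb1 those of Tmppe on the same strand over 165 bases. The genes that did not pass were Psap, Glb1, Gusb, Ids, Naglu and Asah1. Glb1, the beta-galactosidase, was at 210.3 CPM in BAP1 KO and 214 CPM in WT (adjusted p = 0.3), and Gusb, the beta-glucuronidase, at 451 CPM in BAP1 KO and 438 CPM in WT (adjusted p = 0.07). Ids and Naglu, of heparan sulfate breakdown, had log2 fold changes of -0.02 ± 0.03 and -0.04 ± 0.03, and the acid ceramidase Asah1 had -0.02 ± 0.02.

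Genes of the lysosomal membrane moved in both directions. Of 6 genes, with the soluble Npc2 counted among them, 3 were higher, 2 were lower and 1 did not pass. Among all genes tested, 29.0% were higher and 32.1% lower. In each of the 6 the genotypes did not overlap, as in 53.8% of all genes tested. Mcoln1 (Entrez 94178; chromosome 8, 3500519 to 3515232), the calcium channel whose loss causes mucolipidosis type IV, had 41.3, 40.8, 41.7 and 40.7 CPM in the BAP1 KO libraries, against 30.4, 32.7, 32.3 and 31.5 CPM in the WT libraries. Its log2 fold change was 0.37 ± 0.03 (SE, adjusted p = 1.2e-11), the highest of the 6. Lamp1 and Lamp2 are the 2 main glycoproteins of the membrane, and they differed in direction. Lamp1 had 1457, 1469, 1475 and 1491 CPM in the BAP1 KO libraries, against 1356, 1386, 1374 and 1367 CPM in the WT libraries, a log2 fold change of 0.10 ± 0.02 (SE, adjusted p = 1.2e-05). Lamp2, which also serves chaperone-mediated autophagy, had 481, 501, 533 and 520.1 CPM in BAP1 KO and 615, 606, 591 and 569 CPM in WT, a log2 fold change of -0.23 ± 0.03 (SE, adjusted p = 3.1e-07). Scarb2, the receptor that carries glucocerebrosidase to the lysosome, had 250.2, 256, 249 and 244 CPM in the BAP1 KO libraries, against 296, 290.2, 295 and 291 CPM in the WT libraries, a log2 fold change of -0.23 ± 0.02 (SE, adjusted p = 5.2e-11). Lamp2 and Scarb2 were both lower, Scarb2 by less (-0.15) with GC and length trends taken out. Npc1 and Npc2 hand cholesterol out of the lysosome one after the other. Npc1 had 183, 187, 184 and 182 CPM in the BAP1 KO libraries, against 157, 159, 159 and 154 CPM in the WT libraries, a log2 fold change of 0.23 ± 0.02 (SE, adjusted p = 1.1e-10). Exons of Npc1 overlap those of Rmc1 and Gm15956, by up to 511 bases, and exons of Lamp1 those of Grtp1, over 249 bases, on the opposite strand. Npc2 was at 915 ± 3.51 CPM in BAP1 KO and 939 ± 11.6 CPM in WT (SD, n = 4 each), with a log2 fold change of -0.04 ± 0.02 that did not pass (adjusted p = 0.089).

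Subunits of the V-ATPase were mostly higher in BAP1 KO, among them 6 of the 7 of the V1 sector. Of the 14 subunits, 9 were higher, 4 were lower and 1 did not pass, where 29.0% of all genes were higher and 32.1% lower. The median log2 fold change of the 14 was 0.16. Their summed level was 2714 to 2759 CPM in the BAP1 KO libraries, against 2392 to 2464 CPM in the WT libraries. The sums did not overlap. Macrophages are rich in this pump, and the macrophage marker sum given above was also higher in BAP1 KO, though not without Lyz2; its part in this result was not tested. By sector, the sum of the 7 V1 subunits was 1430.3 to 1472 CPM in BAP1 KO and 1238 to 1279 CPM in WT, that of the 5 V0 subunits 707 to 726 CPM in BAP1 KO and 649 to 686 CPM in WT, and that of the 2 accessory subunits 555 to 565 CPM in BAP1 KO and 486 to 503 CPM in WT.

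In the V1 sector 6 of 7 genes were higher, where 29.0% of all genes were higher. Atp6v1b2 (Entrez 11966; chromosome 8, 69088736 to 69113718), the B subunit that forms the ATP-hydrolysing ring with subunit A, had 392, 402, 386 and 385 CPM in the BAP1 KO libraries, against 304, 314, 321 and 313 CPM in the WT libraries. Atp6v1a, the catalytic A subunit, had 453, 465, 469.6 and 457 CPM in the BAP1 KO libraries, against 395, 394, 392 and 379 CPM in the WT libraries. Both were higher in each BAP1 KO library, with log2 fold changes of 0.32 ± 0.02 (SE, adjusted p = 4.7e-14) and 0.24 ± 0.02 (SE, adjusted p = 1.5e-11). Atp6v1f, of the central rotor, had 44.6, 42.4, 39.5 and 43.4 CPM in BAP1 KO and 34.1, 34.8, 36.2 and 37.1 CPM in WT, a log2 fold change of 0.26 ± 0.04 (SE, adjusted p = 3.6e-07). Atp6v1e1, of the peripheral stalks (0.21 ± 0.02), Atp6v1h, which regulates the coupling of the sectors (0.17 ± 0.02), and Atp6v1d, of the rotor (0.13 ± 0.03), were higher too. Exons of Atp6v1e1 overlap those of Slc25a18, and exons of Atp6v1h those of Rgs20, on the opposite strand over 32 and 127 bases. Atp6v1c1, the C subunit that joins the sectors when the pump assembles, was the exception, with 124, 129, 127 and 126 CPM in the BAP1 KO libraries, against 139.9, 139, 142 and 139.7 CPM in the WT libraries. It fell without overlap, with a log2 fold change of -0.15 ± 0.02 (SE, adjusted p = 1.9e-06). With GC and length trends taken out, that of Atp6v1c1 was -0.05 and that of Atp6v1d 0.19, both still called.

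In the V0 sector the directions were mixed. Atp6v0b (Entrez 114143; chromosome 4, 117884330 to 117887333), a proteolipid of the proton-carrying ring, had 217, 211, 206 and 216 CPM in the BAP1 KO libraries, against 164, 166, 173 and 171 CPM in the WT libraries, a log2 fold change of 0.33 ± 0.02 (SE, adjusted p = 1.7e-13); its exons overlap those of Gm12841 on the opposite strand over 243 bases. The lowest BAP1 KO library was at 206 CPM and the highest WT library at 173 CPM. The d subunit has a general form, Atp6v0d1, and a form of osteoclasts and macrophages, Atp6v0d2. Atp6v0d1 had 224, 226, 218 and 227 CPM in the BAP1 KO libraries, against 192, 204, 208 and 207 CPM in the WT libraries, a log2 fold change of 0.14 ± 0.02 (SE, adjusted p = 7.5e-06). Atp6v0d2 had 14.4, 14.0, 14.0 and 13.7 CPM in the BAP1 KO libraries, against 17.1, 15.6, 18.1 and 16.1 CPM in the WT libraries, a log2 fold change of -0.25 ± 0.05 (SE, adjusted p = 2.3e-05). The general form was higher and the osteoclast form lower in all 4 BAP1 KO libraries; per length, Atp6v0d1 stood at 138 ± 2.32 in BAP1 KO and 124 ± 4.53 in WT and Atp6v0d2 at 5.58 ± 0.127 in BAP1 KO and 6.60 ± 0.434 in WT adjusted RPKM (SD, n = 4 each). Atp6v0a1, the a1 form of the subunit that holds the proton channels, had 265, 267, 263 and 259.6 CPM in BAP1 KO and 271, 286, 282 and 279 CPM in WT, a log2 fold change of -0.08 ± 0.02 (adjusted p = 0.0013) that was not called with GC and length trends taken out (-0.02). Atp6v0c was at 5.58 CPM in BAP1 KO and 5.46 CPM in WT (adjusted p = 0.7). The accessory subunits went apart. Atp6ap1, which helps the pump to assemble, had 445, 448, 441 and 448 CPM in the BAP1 KO libraries, against 359, 375, 374 and 362 CPM in the WT libraries, a log2 fold change of 0.28 ± 0.02 (SE, adjusted p = 5.2e-13). Atp6ap2, also known as the prorenin receptor, had 111, 114, 121 and 117 CPM in the BAP1 KO libraries, against 132, 128, 126 and 123 CPM in the WT libraries, a log2 fold change of -0.14 ± 0.03 (SE, adjusted p = 5e-05). With GC and length trends taken out, Atp6ap2 was at -0.07 and Atp6v0d2 at -0.17, both still called.

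**Figure D4:**
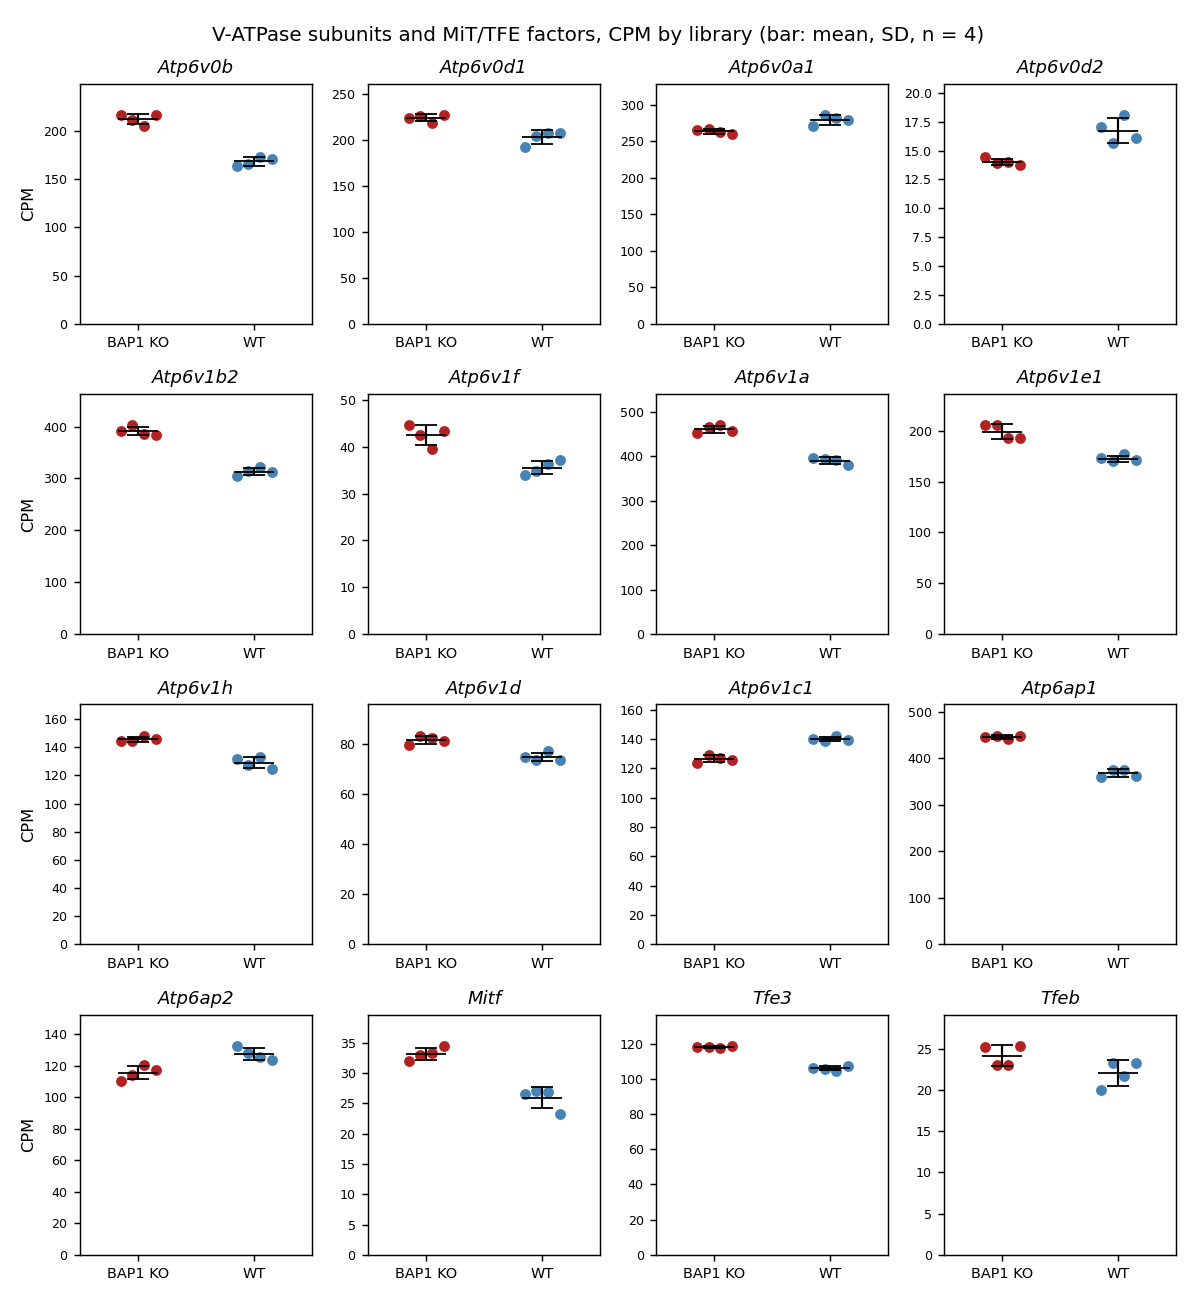
CPM in each library for 13 V-ATPase subunits and the 3 MiT/TFE factors, with BAP1 KO on the left of each panel and WT on the right; bars give the mean and SD of 4 libraries and each axis starts at 0. The groups are apart in every panel but that of Tfeb, and Atp6v0a1, Atp6v0d2, Atp6v1c1 and Atp6ap2 are lower in BAP1 KO.

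Other genes of the pathway were read from lists chosen by function. Among 8 tested V-ATPase subunits outside the set, 2 were higher, 2 were lower and 4 did not pass, where 29.0% of all genes were higher and 32.1% lower; the same shares apply to the lists that follow. Tcirg1, the a3 subunit of osteoclasts and macrophages, was higher, at 129 CPM in BAP1 KO and 107 CPM in WT (0.27 ± 0.03), as was Atp6v0e (0.08 ± 0.03), while Atp6v0e2 (-0.65 ± 0.05) and Atp6v1c2, at 0.289 CPM in BAP1 KO and 0.426 CPM in WT (-0.57 ± 0.25), were lower. On 20 to 52 counts per library, Atp6v1c2 lost its call with no filter, DESeq2 and limma-voom (-0.58 to -0.54) and without BAP1 KO replicate 1, 3 or 4 or WT replicate 2 or 3 (-0.59 to -0.33), and was not tested under the stricter filter. Atp6v0e lost its call without WT replicate 1 (0.05) and was at 0.13 with GC and length trends taken out. Of 26 other hydrolases and activators, 8 were higher, 10 were lower and 8 did not pass. The ganglioside activator Gm2a was at 133 CPM in BAP1 KO and 253 CPM in WT (-0.93 ± 0.02), the sulfatases Arsb and Arsa had -0.90 ± 0.03 and -0.51 ± 0.03, and Acp5, the tartrate-resistant acid phosphatase of osteoclasts and macrophages, was at 4.002 CPM in BAP1 KO and 10.8 CPM in WT (-1.43 ± 0.06). Exons of Acp5 overlap those of 6530413G14Rik, exons of Arsa those of C230037L18Rik and exons of Arsb those of Gm26527 and Gm47210, all on the opposite strand, by 137, 690 and up to 1948 bases. Of 23 other membrane proteins, 11 were higher, 5 were lower and 7 did not pass, among them the chloride exchanger Clcn7 (0.23 ± 0.02), Sidt2 (0.19 ± 0.02), Laptm5 (0.17 ± 0.02) and the macrophage protein Cd68 (0.14 ± 0.02).

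The list for sorting of hydrolases, mostly by mannose 6-phosphate, showed 7 higher, 1 lower and 5 that did not pass among 13 genes. Sort1, the receptor sortilin, which does not depend on mannose 6-phosphate, was the gene that fell. It was at 47.3 CPM in BAP1 KO and 80.4 CPM in WT (-0.76 ± 0.03). The uncovering enzyme Nagpa (0.26 ± 0.03) and the adaptors Gga1 (0.19 ± 0.03) and Ap1m1 (0.16 ± 0.03) rose. Among 5 tested inhibitors of cathepsins, 2 were higher, 2 were lower and 1 did not pass. Cst7, which inhibits Ctsc and its relatives, was at 4.41 CPM in BAP1 KO and 2.398 CPM in WT (0.87 ± 0.09), Cstb had 0.12 ± 0.03, Cst3 had -0.13 ± 0.03, and Csta2 was at 0.124 CPM in BAP1 KO and 0.398 CPM in WT (-1.64 ± 0.29). With GC and length trends taken out, Nagpa was at 0.15, Gga1 at 0.06, Cstb at 0.04 and Cst3 at -0.29, each still called.

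Among genes of nutrient sensing at the lysosome and of autophagy, more were called higher than lower, where 29.0% of all genes were higher and 32.1% lower. Of 15 genes of the Ragulator, the Rag GTPases and folliculin, 9 were higher, 1 was lower and 5 did not pass; the median log2 fold change was 0.09. Rragd (Entrez 52187; chromosome 4, 32982998 to 33022180), a Rag GTPase that is a known target of the MiT/TFE factors, had 25.2, 25.9, 26.9 and 24.3 CPM in the BAP1 KO libraries, against 9.76, 9.97, 8.94 and 8.90 CPM in the WT libraries. No other gene of the pathway lists rose as much on the log2 scale, 1.44 ± 0.05 (SE, adjusted p = 3.9e-22). Its paralogue Rragb fell, to 0.532 CPM in BAP1 KO, against 1.51 CPM in WT (-1.50 ± 0.15), and Mtor (0.39 ± 0.03) and Flcn (0.32 ± 0.03) rose. Of 29 autophagy genes, 19 were higher, 1 was lower and 9 did not pass, with a median log2 fold change of 0.09. With 1 library left out, 16 to 18 autophagy genes were higher, and 7 to 9 of the Ragulator list. Small rises such as those of Map1lc3b (0.06), Gabarapl1 (0.05) and Optn (0.10) lost their call in several settings. The receptor Sqstm1 was at 646 CPM in BAP1 KO and 499 CPM in WT (0.37 ± 0.02), Vps33a had 0.35 ± 0.02 and Map1lc3a 0.28 ± 0.03, while Wipi1 fell (-0.39 ± 0.03). Map1lc3a was at 0.07, still called, with GC and length trends taken out. Exons of Sqstm1 overlap those of Mrnip and exons of Sort1 those of Gm12523 on the opposite strand, over 580 and 338 bases. Of 8 tested targets of TFEB and MITF outside the lysosome, 3 were higher, 2 were lower and 3 did not pass. Gpnmb, a target of MITF in macrophages, was lower, at 1109 CPM in BAP1 KO and 1309 CPM in WT (-0.24 ± 0.02), and the higher ones were Rragd, Sqstm1 and Flcn, which the lists before it hold as well.

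Ctsk, Acp5, Atp6v0d2 and Tcirg1 are all known from osteoclasts, bone-resorbing relatives of macrophages. Of 11 osteoclast genes tested, among them Ctsk, Acp5, Tcirg1 and Clcn7, 7 were higher, 2 were lower and 2 did not pass. Over all genes, 29.0% were higher and 32.1% lower. Ctsk, Mmp9 (0.56 ± 0.03) and others rose, and Itgb3 (-1.42 ± 0.05) and Acp5 fell. By 1.5-fold or more, 1 gene of the list was higher, Ctsk, and 2 were lower, Itgb3 and Acp5. At that size 4.49% of all genes were higher and 10.3% lower. Atp6v0d2, which that list does not hold, was lower (-0.25 ± 0.05). Dcstamp, Ocstamp and Calcr, which mark fused osteoclasts, were near 0, with means of 0.106 CPM or less in either genotype.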

How the data were processed

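Per the labels' protocols, RNA was made into TruSeq RNA v2 libraries and read from a single end on a HiSeq4000. GSNAP and the build GRCm38 are named in the submitters' processing notes. The sources used here do not give the annotation or the strand setting. Per the file headers, the deposited counts are reads with a unique alignment, summed by gene; the deposited RPKM are adjusted by the authors with a size factor per library, and are used here for levels between genes. Symbols came from RefSeq on GRCm38.p6 (31049 identifiers) and GENCODE vM21 (77); 5402 identifiers, with 1.15 to 1.29% of counts, had none. Exon overlaps came from GENCODE vM21. Total counts were 67.1 to 84.9 M per library.

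Counts of all genes were tested with edgeR 4.0.16 (R 4.3.3): TMM factors, filterByExpr by genotype, robust quasi-likelihood F test, Benjamini-Hochberg adjustment over 16929 genes, threshold 0.05. The procedure was tested on simulated data. CPM use TMM-adjusted totals; fold changes are BAP1 KO over WT, and standard errors were taken as the size of the log2 fold change over the root of F. Alternatives were RLE, upper quartile or no factors, no filter, a stricter filter (more than 1 CPM in 4 libraries or more), DESeq2 1.42.0, voom in limma 3.58.1, a test against a 1.5-fold change and each library left out. Removal of GC content and length trends (mgcv 1.9.3; all 56 genes and 85.1% of those tested) was added after seeing the data. The genes and lists were chosen with earlier results of these data known. Values per library are given for Bap1, the MiT/TFE factors and, per role, up to 3 called genes in each direction with the largest changes. They are also given for Atp6v0d2, Ctsd, Ctsb, Ctsl, Lamp1, Grn and Npc1 whatever their change. Ctsc, Gla and, from the pathway lists, Rragd were added after their values were seen. In other lists, up to 4 genes with the smallest adjusted p are named.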

Additional observations from a re-analysis of the deposited data

Results flagged for a closer look

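In 4 of 112 groups of 4 libraries, 1 library stood apart from the other 3; chance flags about 1 group in 20. Ctsa was at 775 CPM in BAP1 KO replicate 2, with the others at 790.0 to 793 CPM. Ctse was at 0.209 CPM in BAP1 KO replicate 3, above 0.103 to 0.116 CPM in the others. Mitf was at 23.3 CPM in WT replicate 4, below 26.6 to 27.0 CPM in the other WT libraries. Atp6v0c was at 5.34 CPM in BAP1 KO replicate 2, with the others at 5.63 to 5.68 CPM.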

How the results depend on the processing

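No paired analysis was possible because the labels give no replicate numbers. The replicate numbers used here follow the order of the samples within each genotype and pair no library across genotypes. Outside the test against a 1.5-fold change, 41 of the 56 genes stayed on the same side of the threshold under all 16 alternatives, 38 of them among the 46 called; 39 also kept their sign, while Ctsb (0.0036) and Atp6v0c (-0.013), which did not pass, changed it with GC and length trends taken out. Of the 10 that did not pass, Ctsd (-0.06), Naglu (-0.13), Ids and Asah1 passed with GC and length trends taken out, Psap in 5 settings, Gusb in 3 and Npc2 in 2. Against a 1.5-fold change, 370 of all genes were higher and 1014 lower, and 1 gene of the set was higher and 2 were lower. There, other V-ATPase subunits, hydrolases, membrane proteins, mannose 6-phosphate sorting and autophagy held 0 higher, and inhibitors, Ragulator, targets of TFEB and MITF and osteoclast genes 1 each. Lower genes numbered 3 among other hydrolases, 2 among osteoclast genes and 1 each among inhibitors, sorting and Ragulator genes. They numbered 0 among V-ATPase subunits, membrane proteins, autophagy and TFEB and MITF targets. With GC and length trends taken out, directions turned for Ctso (0.0031), Ctsz (-0.012), Gla (0.012), Ids (0.049), Asah1 (0.086), Tfeb (-0.037), Pld3 (-0.054), Ifi30 (-0.0729), Cd63 (-0.0224), Abca2 (-0.0194), Ostm1 (0.015), Lamtor2 (-0.095), Lamtor4 (-0.052), Ulk1 (-0.012) and Atg5 (0.097), and 3 Ragulator genes were lower; the cause was not tested. With library totals alone, 2 genes were lower in each of the sorting, Ragulator and autophagy lists. Of other V-ATPase subunits, 1 was lower, as Atp6v1c2 dropped out, with no filter, the stricter filter, DESeq2 and limma-voom, and of inhibitors 1 with the stricter filter. Leaving out 1 library gave, among V-ATPase subunits outside the set, 1 (without WT replicate 1) to 2 higher and 1 (without BAP1 KO replicate 1, 3 or 4 or WT replicate 2 or 3) to 2 lower. It gave 3 (without WT replicate 2 or 3) to 5 other membrane proteins that were lower, 1 to 2 (without WT replicate 4) sorting genes, 1 to 2 (without WT replicate 1) Ragulator genes and 1 (without BAP1 KO replicate 4 or WT replicate 3) to 2 TFEB and MITF targets. For the set, it gave 26 to 27 higher and 17 to 19 lower. At 8 counts, Ctse is limited by depth.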
